A study of Danio rerio with 4 samples.

Results

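*grwd1* and *rpl3* are a chaperone and its client, and they are described here in whole zebrafish larvae in which *grwd1* was edited. They were taken from the deposited count table by symbol, *grwd1* as ENSDARG00000004806 and *rpl3* as ENSDARG00000003599, and are 2 of 32520 genes. Each symbol matched 1 gene ID. RNA came from larvae at 8 dpf, with 2 wt libraries and 2 libraries of *grwd1* crispants, and 15 larvae were pooled per group. Crispants were F0 larvae injected at the 1-cell stage with 100 pg of each of 2 guide RNAs and 150 pg of Cas9 mRNA. The study describes them as mosaic, and how far the sequenced pools were edited is not reported here. The wt larvae are described only as wild type, with no strain or mock injection given in the sources used here. Nothing in the labels or methods shows that the paired libraries were drawn from different pools of larvae, so p-values reflect library-to-library spread alone and may be technical.

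Grwd1 is a WD40 repeat protein that works in the nucleus. In budding yeast its counterpart Rrb1 binds newly made Rpl3 and brings it to the growing large ribosomal subunit. Rpl3 is one of the earliest proteins of that subunit and reaches toward the peptidyl transferase center, where amino acids are joined. Ribosomal proteins are made in matched amounts, and those left unassembled are usually degraded, so several of them travel with dedicated chaperones of this kind.

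The guides are shown because they define what the crispants carry. The study describes the first as cutting in the first exon and the second in the last exon, so that joined ends would lack the stretch between them. Each guide has 20 bases, and the capitals mark the 12 bases at the 3′ end, which lie next to the PAM when Cas9 is bound.
grwd1 gRNA1: gatacatgCGGTAAGCGGAG
grwd1 gRNA2: actccaccGACAGATCCCAT
Both guides hold 11 G or C bases (55.0%). Their genome positions are not given here. The values that follow are reads per gene, which do not separate edited from unedited alleles, transcript forms or reads from the deleted stretch.

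Counts of *grwd1* mRNA were far lower in crispants. The wt libraries held 390 and 439 counts and the crispant libraries 123 and 102. Scaled to library size as CPM, the level was 24.98 in wt replicate 1 and 24.1 in wt replicate 2, against 6.40 and 6.34 in crispant replicates 1 and 2. The groups were thus well apart, whereas within a group the libraries differed by only 3.65% in wt and 0.993% in crispants. Counting error allowed CPM of 21.9 to 27.6 in the wt libraries and of 5.17 to 7.69 in the crispant libraries (exact Poisson 95% intervals, which cover counting error only). The replicates of each group lay within each other's intervals. The mean went from 24.5 ± 0.622 to 6.37 ± 0.0445 CPM (SD, n = 2), and the log2 fold change of crispants over wt was -1.94 (standard error 0.18, adjusted p = 3.25e-14 from edgeR). Crispants thus kept 26.0% of the wt level, with a 95% interval of 20.3% to 33.3%. Because RNA came from whole larvae, fewer cells with the mRNA and less mRNA per cell cannot be told apart. Nor can either be told from mRNAs that lack the stretch between the guides, since reads are counted per gene.

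Across all genes tested, 7.44% were lower in crispants and 8.98% higher, together 16.4% (edgeR, with genes called at an adjusted p up to 0.05). With library totals in place of TMM factors, 2355 genes were higher and 1000 lower, against 1839 and 1524 here. *grwd1* had rank 40 of 20479 genes when these were ordered from the lowest log2 fold change, rank 30 of the 1524 genes that fell and rank 97 of all genes by p. Without any scaling, the ratio of *grwd1* counts to the counts of another gene was lower in both crispant libraries than in both wt libraries for 20237 of 20478 genes (98.8%). It was higher without overlap for 15.

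**Figure D1:**
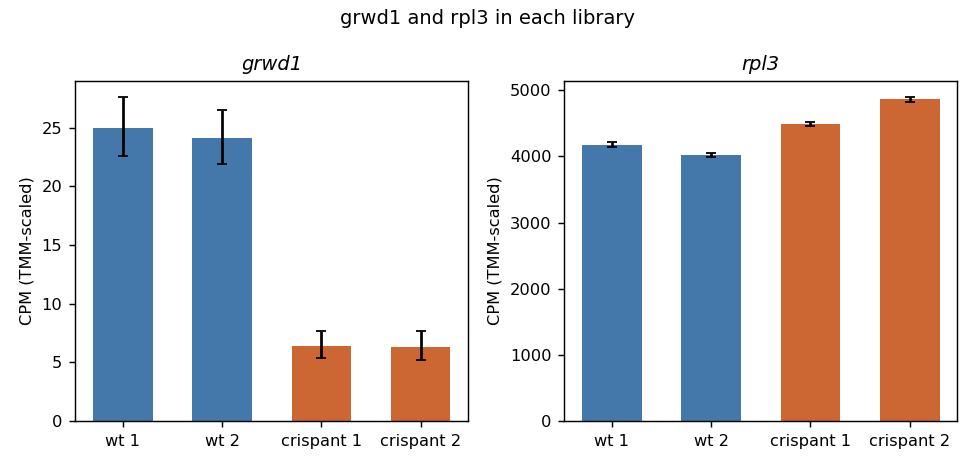
CPM (TMM-scaled, vertical axis) of *grwd1* and *rpl3* in each of the 2 wt libraries (blue) and 2 crispant libraries (orange), with exact Poisson 95% intervals as bars. *grwd1* lies at 24.1 to 24.98 in wt and 6.34 to 6.40 in crispants, and *rpl3* at 4016 to 4181 in wt and 4484 to 4862 in crispants.

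The mRNA of *rpl3* did not follow its chaperone down. Its counts were 65276 and 73172 in wt and 86174 and 78257 in crispants. In CPM, the wt libraries had 4181 and 4016, and the crispant libraries 4484 and 4862. The groups did not overlap, as was so for 28.1% of all genes in this direction. The lowest crispant library lay 7.26% above the highest wt library, which is less than the 8.43% between the crispant libraries themselves. The mean went from 4098 ± 116 to 4673 ± 267 CPM (SD, n = 2). The log2 fold change was 0.19 (standard error 0.06, 95% interval 0.07 to 0.31, adjusted p = 0.0158 from edgeR). As a call, this rise is uncertain. It was lost with the replicate number as a block (adjusted p = 0.0859), and also when wt replicate 1 (0.192), wt replicate 2 (0.375) or crispant replicate 2 (0.0635) was left out, all from edgeR. It kept its sign in each of these. Without crispant replicate 2 the value was 0.12, and without crispant replicate 1 it was 0.25.

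In mRNA level, *rpl3* stood apart from the genes for the other proteins of its subunit. Of 44 other large subunit genes tested, 42 fell, 0 rose and 2 did not pass (edgeR). The background was 7.44% of all genes lower and 8.98% higher. The direction was kept under each scaling of the libraries except scaling to these genes themselves. There 2 fell and 3 rose, beside 0.649% and 39.7% of all genes. With TMM factors, the log2 fold changes of the 44 ran from -0.60 to -0.15. Their median was -0.41 and their quartiles -0.44 and -0.36, whereas the median over all genes tested was 0.0046. All 44 lay below 0 and below *rpl3*. The value of *rpl3* was 0.60 above the median, while the SD among the other genes was 0.08 and their whole range was 0.44. The 95% intervals of 43 of the 44 ended below the lower bound of *rpl3*. None of the 44 rose with DESeq2 or limma-voom, and 41 fell with DESeq2 and 43 with limma-voom. None had an unadjusted p under 0.05 in edgeR with a rise, beside 3048 of the 20479 genes tested.

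The neighbours of *rpl3* in this order were *rpl19* and *rpl11*. *rpl19*, whose protein joins the large subunit to the small one by a bridge, was nearest, 0.34 below *rpl3*. It had 1535 and 1504 CPM in wt and 1290 and 1443 in crispants. The crispant libraries both lay lower, as was so for 26.5% of all genes, but the change of -0.15 did not pass (adjusted p = 0.0807 from edgeR). It passed without crispant replicate 2, where the value was -0.24 (adjusted p = 0.000369 from edgeR). *rpl11*, part of the 5S ribonucleoprotein particle that can bind Mdm2, had 1514 and 1493 CPM in wt and 1211 and 1320 in crispants. Its fall of -0.25 passed (adjusted p = 0.00189 from edgeR), though not without wt replicate 1 (0.104) or wt replicate 2 (0.0667).

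At the other end was *rpl28*, with 653 and 877 CPM in wt and 633 and 378 in crispants. Its libraries were unequal within each group, and the crispant library nearest to wt lay only just below it. The log2 fold change of -0.60 passed with edgeR (adjusted p = 1.91e-06) but not with DESeq2 (0.447). It ran from -0.28 without crispant replicate 2 and -0.37 without wt replicate 2 to -1.02 without crispant replicate 1. *rpl10a*, which had the smallest p of the list, fell by 0.55 on the log2 scale, from 2694 and 2672 CPM to 1774 and 1881. *rpl4*, which like *rpl3* encodes a large protein that extends deep into the subunit, was named after its values were seen. It went from 4586 and 4424 CPM in wt to 3161 and 3414 in crispants, a log2 fold change of -0.45 (adjusted p = 5.22e-09 from edgeR). The gene ID named *rpl9* had a CPM of only 1.93 to 2.63 and did not pass (log2 fold change -0.31, standard error 0.45). *rpl26* fell under the low-count filter.

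**Figure D2:**
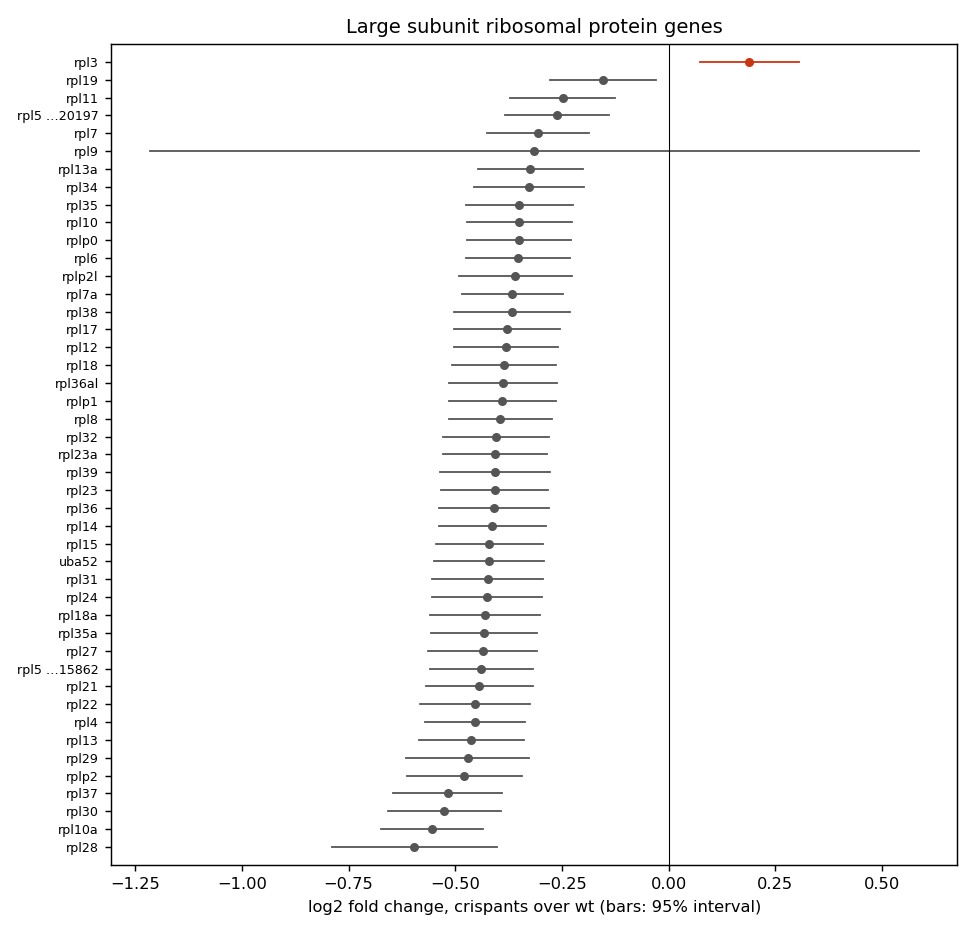
Log2 fold change of crispants over wt (horizontal axis) for the 45 large subunit ribosomal protein genes tested, ordered by value, with 95% intervals as bars and *rpl3* in red. *rpl3*, at 0.19, is the only point above 0, the next is *rpl19* at -0.15, and the wide bar belongs to *rpl9*. The 2 copies of *rpl5* carry the last digits of their gene IDs.

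The same contrast held in a measure that no scaling of libraries enters. *rpl3* took 5.91% and 5.86% of all counts of large subunit genes in wt replicates 1 and 2, and 8.570% and 8.569% in crispant replicates 1 and 2. The crispant shares were almost the same, and far above both wt shares. The Wilson 95% intervals were 5.82% to 5.95% over the wt libraries and 8.51% to 8.63% over the crispant libraries, and cover counting error only. The mean share went from 5.88% ± 0.0348 to 8.57% ± 0.000705 (SD, n = 2), a log2 ratio of 0.54. An exact permutation test of the 4 shares, two-sided, gave p = 0.333, the smallest that 2 libraries against 2 can give.

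Both parts of this share moved. Large subunit genes together fell from 6.87% and 6.71% of all counts in wt to 5.43% and 5.74% in crispants. *rpl3* alone took 0.406% and 0.393% of all counts in wt, and 0.466% and 0.492% in crispants. The other large subunit genes and *rpl3* thus shifted in opposite directions. The log2 fold change of *rpl3* was 0.26 with library totals alone and 0.19 with TMM factors. How much of the contrast lies in each part therefore depends on the scaling. Gene by gene, the ratio of *rpl3* counts to those of another large subunit gene was higher in both crispant libraries than in both wt libraries for 44 of 44 genes. The same held for 44.2% of all other genes tested. The log2 difference in these ratios ran from 0.34 for the gene nearest to *rpl3* to 0.82.

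With the summed counts of the other large subunit genes in place of library sizes, *rpl3* was 0.58 higher on the log2 scale in crispants (standard error 0.04, adjusted p = 1.13e-16 from edgeR). Under that scaling the median of all genes shifted to 0.40 and 39.7% of genes were higher, so a rise relative to these mRNAs was common. The distance of *rpl3* from the median of the other large subunit genes does not depend on the scaling, which shifts all genes alike, and without wt replicate 2 it was 0.58.

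**Figure D3:**
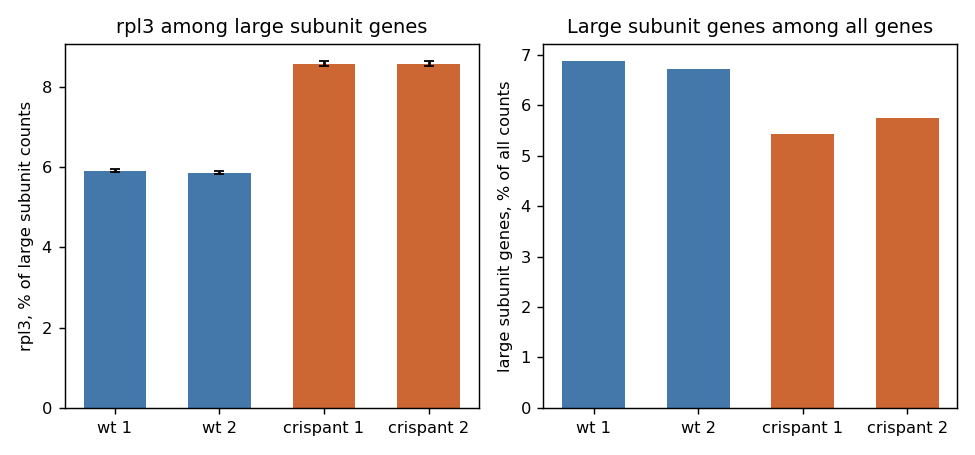
Left, share of *rpl3* in the counts of the 46 large subunit ribosomal protein genes (percent) in each library, with Wilson 95% intervals as bars; right, share of these 46 genes in all counts (percent). The *rpl3* share is 5.86% to 5.91% in wt (blue) and 8.57% in both crispant libraries (orange), while the share of the 46 genes is lower in both crispant libraries.

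Small subunit genes gave a similar picture to the large subunit genes other than *rpl3*. Of 36 tested, 34 fell, 1 rose and 1 did not pass (edgeR), with a median log2 fold change of -0.40, while scaled to the large subunit genes 2 fell. Over all genes, 7.44% were lower and 8.98% higher, and under that scaling 0.649% were lower. *rps9*, with the smallest p, fell by 0.63 on the log2 scale. The gene that rose was *faub* (0.56, adjusted p = 0.0159 from edgeR), a copy of the gene for a ubiquitin-like protein fused to a small subunit protein. It had 13.0 and 11.5 CPM in wt and 17.0 and 19.01 in crispants, and its call was lost with DESeq2 (adjusted p = 0.0830), without wt replicate 2 (0.147) and without crispant replicate 2 (0.133, both from edgeR). Measured against the genes of both subunits, the *rpl3* share was 3.54% and 3.52% in wt and 5.22% and 5.21% in crispants.

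Genes with a role like that of *grwd1* did not show a change of its size. Such a fall was rare among all genes, since *grwd1* had rank 40 of 20479 from the lowest log2 fold change. The list holds genes whose yeast or human counterparts escort, import or modify a single ribosomal protein, or act close to that step. Beside *grwd1*, 2 of 10 fell, 0 rose and 8 did not pass (edgeR), with log2 fold changes from -0.34 to 0.21 and a median of -0.14. Of all genes, 7.44% were lower and 8.98% higher. Scaled to the large subunit genes, 3 of the 10 rose and 0 fell, beside 39.7% and 0.649% of all genes. In the count of genes that rose, DESeq2 and limma-voom also gave 0. An unadjusted p under 0.05 in edgeR gave 0 as well, beside 3048 of the 20479 genes tested. *aamp*, whose yeast counterpart escorts Rpl10, had 337 and 281 CPM in wt and 227 and 261 in crispants, a log2 fold change of -0.34 (adjusted p = 0.000321 from edgeR). Without wt replicate 1 it was -0.21 and did not pass (adjusted p = 0.179 from edgeR). *bccip*, whose yeast counterpart escorts Rpl23, went from 223 and 220 CPM to 170 and 190, a log2 fold change of -0.30 (adjusted p = 0.00141 from edgeR).

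Of those that did not pass, *tsr2*, which serves Rps26 in yeast, had -0.25 (adjusted p = 0.0779), and *heatr3*, which in human cells carries RPL5 into the nucleus, had -0.14 (adjusted p = 0.518). *nap1l1*, a histone chaperone gene, had -0.13 and *ltv1*, for an assembly factor of the small subunit, -0.07. *pum3*, of the Puf protein family, had 0.01. *pdcd2*, which serves RPS2 in human cells, had 0.21 with a standard error of 0.58, at only 0.769 to 1.93 CPM, and its relative *pdcd2l* had -0.0092. *mettl18*, whose human counterpart methylates RPL3 on a histidine, had 7.43 and 6.04 CPM in wt and 5.15 and 7.08 in crispants. These groups overlapped, and the value of -0.14 (standard error 0.26) did not pass.

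**Figure D4:**
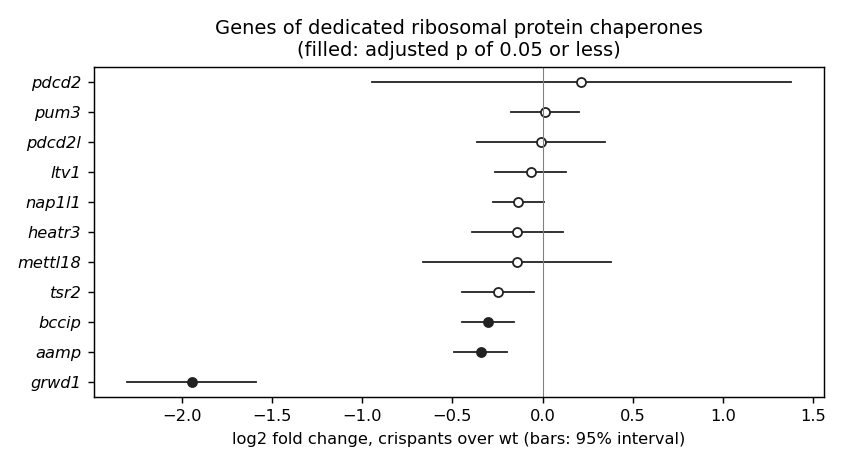
Log2 fold change of crispants over wt (horizontal axis) for *grwd1* and 10 other genes of dedicated ribosomal protein chaperones and related factors, with 95% intervals as bars and filled points for an adjusted p of 0.05 or less in edgeR. *grwd1* lies at -1.94, and the next lowest, *aamp*, at -0.34.

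Most genes for the factors that build the large subunit around Rpl3 were not called, as was so for 17116 of the 20479 genes tested. Of 64 tested, 13 fell, 1 rose and 50 did not pass (edgeR), with a median of -0.07, while scaled to the large subunit genes 29 rose and 1 fell, beside 39.7% and 0.649% of all genes. The share that fell, 20.3%, stands beside 7.44% of all genes, and without wt replicate 2 the number was 8. *gtpbp4*, for a GTPase of the early large subunit particle, went from 1435 and 1434 CPM in wt to 957 and 956 in crispants, a log2 fold change of -0.58 (adjusted p = 5.37e-12 from edgeR). *sbds*, for a late factor of the same pathway, was the gene that rose (0.45, adjusted p = 0.0353 from edgeR), and its call was lost with DESeq2 (0.154), without wt replicate 1 (0.301) and without crispant replicate 2 (0.241).

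A list of other WD repeat proteins of ribosome assembly also holds *heatr1*, whose protein has HEAT repeats instead and which did not pass. Of the 22 genes, 3 fell, 1 rose and 18 did not pass (edgeR), or 13.6% and 4.55% beside 7.44% and 8.98% of all genes. Their median was -0.06, and scaled to the large subunit genes 13 rose and 0 fell, where 39.7% of all genes rose. The genes that fell were *aamp*, *utp4* (-0.33) and *wdr43* (-0.22), the latter pair named after their values were seen, and without wt replicate 1 the number was 1. *aamp* had the smallest p, and *wdr36*, for a factor of the small subunit, rose by 0.30 (adjusted p = 0.0480 from edgeR). The call of *wdr36* was lost under 9 of the alternatives and also at an adjusted p of 0.01. A list of histone-binding WD repeat genes gave 4 of 4 not passed, between -0.02 for *rbbp4* and 0.12 for *rbbp5*. Most genes did not pass either, 17116 of 20479. Scaled to the large subunit genes, 3 of the 4 rose and 0 fell, beside 39.7% and 0.649% of all genes.

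In human cells GRWD1 also takes part in loading the MCM helicase onto DNA before replication. Of 18 replication licensing genes tested, 2 rose, 0 fell and 16 did not pass (edgeR), and the median was 0.22, while scaled to the large subunit genes 9 rose. The share that rose, 11.1%, was near the 8.98% of all genes, and under that scaling 39.7% of all genes rose. *mcm6* (ENSDARG00000057683), a helicase subunit, had 9.67 and 7.74 CPM in wt and 12.5 and 14.8 in crispants, a log2 fold change of 0.65 (adjusted p = 0.0160 from edgeR). The other that rose was *mcm5* (0.68, adjusted p = 0.0425 from edgeR), named after its values were seen. With DESeq2 and without crispant replicate 2, 0 of the list rose, and without wt replicate 1 the number was 1. The call of *mcm6* was lost without wt replicate 2 (adjusted p = 0.197) and without crispant replicate 2 (0.160). Genes that fell numbered 0 with DESeq2, limma-voom and an unadjusted p under 0.05 in edgeR too, where 2645 of the 20479 genes tested were lower.

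Nonsense-mediated decay removes mRNAs with early stop codons, and in human cells a splice form of the *RPL3* transcript is one of its targets. Of 18 genes for its factors, 1 fell, 0 rose and 17 did not pass (edgeR), while scaled to the large subunit genes 13 rose and 0 fell. The share that fell, 5.56%, was near the 7.44% of all genes, and under that scaling 39.7% of all genes rose. At an unadjusted p under 0.05 in edgeR, 1 of the list was higher and 3 lower, beside 3048 and 2645 of the 20479 genes tested. In the count of genes that rose, DESeq2 and limma-voom gave 0. The gene that fell was *upf3a*, for a cofactor of Upf2, from 69.6 and 77.6 CPM to 50.4 and 53.6 (log2 fold change -0.50, adjusted p = 4.28e-05 from edgeR). *upf1*, for the central helicase, had -0.06 and did not pass.

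Besides *rpl11*, the 5S particle holds the product of *rpl5*, which has 2 gene copies. Both fell (edgeR), beside 7.44% of all genes. Scaled to the other large subunit genes, the copy ENSDARG00000020197 was higher (0.13). That is less than the median of all genes under that scaling, 0.40, where 39.7% of all genes were higher. The copy ENSDARG00000015862 had 2324 and 2266 CPM in wt and 1623 and 1761 in crispants, a fall of 0.44 on the log2 scale (adjusted p = 2.99e-08 from edgeR). Its groups did not overlap, as was so for 26.5% of all genes in this direction. The copy ENSDARG00000020197 had 1649 and 1654 CPM in wt and 1338 and 1418 in crispants, a fall of 0.26 on the log2 scale (adjusted p = 0.000836 from edgeR). Its call was lost when wt replicate 1 (adjusted p = 0.0619) or wt replicate 2 (0.0664) was left out.

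The genes beside *grwd1* on its chromosome did not show a fall of its size, though *flcn* was called lower. Over all genes, 7.44% were lower, and few fell as far as *grwd1*, which had rank 40 of 20479 from the lowest. In the order of the RefSeq gene table (assembly GRCz12tu, used for names and order only), 0 protein-coding genes overlap *grwd1*. The nearest gene on one side, *zgc:174888* (ENSDARG00000077176), had 10.1 and 13.1 CPM in wt and 10.0 and 10.6 in crispants, and on the other *cdc42ep5* had 17.5 and 18.9 against 21.2 and 21.7. Neither passed (log2 fold changes -0.17 and 0.24, adjusted p = 0.635 and 0.317 from edgeR). Of the next 2, *flcn*, the folliculin gene, fell by 0.28 on the log2 scale (adjusted p = 0.0383 from edgeR) and *atg12*, for an autophagy protein, had -0.13 and did not pass. This comparison was chosen after the *grwd1* values were seen.

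*rpl3* has 2 annotated snoRNA genes within its span in the same assembly, and 0 overlapping protein-coding genes. Whether snoRNA reads entered its count was not tested. On one side its nearest neighbours are *slc25a39*, a mitochondrial carrier gene, which had -0.14 and did not pass, and *rpl27*, which fell by 0.44 on the log2 scale from 997 and 928 CPM to 684 and 739 (adjusted p = 1.68e-07 from edgeR). The fall of *rpl27* stands beside the small and uncertain rise of *rpl3*.

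The pattern over the 4 libraries was compared with that of 15502 named genes by the distance between centred log2 CPM values, where 0 is an identical pattern. Closest to *grwd1* were the lens crystallin genes *crygm2d16* (0.0125) and *crygm2d17* (0.125), then *cartpt* (ENSDARG00000035852, 0.134), *cyt1l* (0.167), a keratin gene, and *ctrb.2* (0.248), a chymotrypsinogen gene. Their log2 fold changes were -1.72 to -1.99, and reads of the closely similar crystallin copies may have been assigned to either. Only 1 gene lay within 0.1 of *grwd1*, whereas 282 lay within 0.1 of *rpl3*. This contrast follows largely from the size of each change, since few genes fell as far as *grwd1*. The nearest to *rpl3* were *psap* (0.0071), the prosaposin gene of lysosomes, *hspd1* (0.0092), a mitochondrial chaperonin gene, *ddx61* (0.0182), *zfand2b* (0.0193) and *tnn* (0.0211), a tenascin gene. Of these, *psap* passed in edgeR (log2 fold change 0.18, adjusted p = 0.0353), and the others did not pass. The call of *psap* was lost under 5 of the alternatives and also at an adjusted p of 0.01. With 4 libraries in 2 groups, likeness in this measure rests mainly on a similar fold change.

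**Figure D5:**
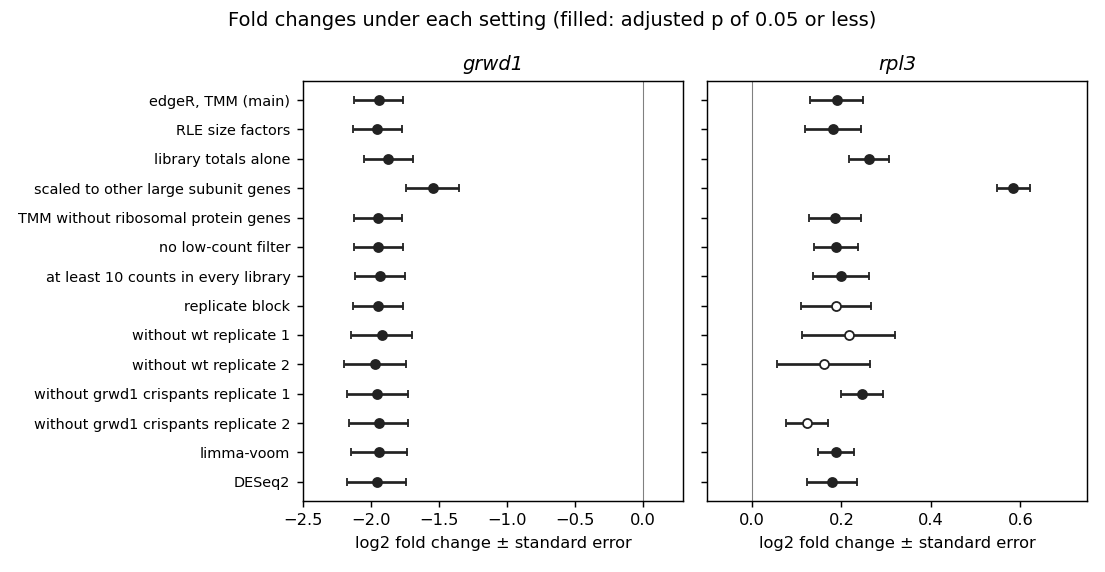
Log2 fold change of crispants over wt (horizontal axis, bars are standard errors) of *grwd1* and *rpl3* under each setting tried, with filled points for an adjusted p of 0.05 or less. *grwd1* stays between -1.97 and -1.55 and is filled throughout, while *rpl3* stays above 0 and is open in 4 settings. The *rpl3* point at 0.58 comes from scaling to the other large subunit genes.

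The libraries held 15916216 to 18619802 counts, with depths that overlapped between groups. The gaps between same-group libraries exceeded counting noise, since chi-square per degree of freedom was 4.47 for wt and 5.00 for crispants. The tissue check used 27 gene IDs for markers of gut, pancreas, liver, muscle, eye, brain, skin, blood and dividing cells. Of these, 0 were at 0 in every library, as whole larvae would give. Blood rested on *lyz* alone, at 1 to 10 counts per library and under the low-count filter, since its other markers had no matching ID. The summed level of the markers tested was 18007 to 18019 CPM in wt and 18817 to 19214 in crispants. Of the 26 tested, 9 rose and 9 fell (edgeR), 34.6% in each direction beside 8.98% and 7.44% of all genes. Tissue markers thus changed in both directions between the same groups, and their part in the results for *grwd1* and the ribosomal proteins was not tested.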

How the data were processed

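Counts of reads per gene were measured by RNA-seq in 2 wt and 2 *grwd1* crispant libraries, grouped from the sample labels. The authors deposited raw counts, made per the labels and methods with FastQC, Trimmomatic 0.39, HISAT2 on GRCz11 and featureCounts, from a stranded total RNA kit with 600 ng of RNA. For the annotation release, the strand setting and multimapping reads, details were not given in the sources used here, so values of gene copies, overlapping genes and antisense genes are uncertain. Of 32667 lines, 147 exact repeats were dropped. Gene IDs were paired with symbols from a name table (89.8% matched), shown in lower case.

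The main test was edgeR 4.0.16 (R 4.3.3), with filterByExpr, TMM factors (0.971 to 1.04), the quasi-likelihood test with group as the only term, and Benjamini-Hochberg adjustment over the 20479 genes tested. CPM values use TMM-scaled library sizes, and a standard error is the log2 fold change divided by the square root of F. The code was tested on simulated data. Counting intervals are at 95%, and ratios of counts had 0.5 added. The members and the 10 gene lists were chosen with earlier results of these data known. Some list members, and the counts of 1 list, are not reported here. List members with no matching ID were left out, for example 3 of 49 names of large subunit genes.

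Named genes were the members, the lowest and highest large subunit genes and those nearest to *rpl3*, all genes of the chaperone list, the smallest p per direction in other lists, and the 5 genes most like each member with mean log2 CPM of at least 1. The alternatives were DESeq2 1.42.0, limma-voom 3.58.1, RLE factors, library totals, scaling to the other large subunit genes, TMM without ribosomal protein genes, no filter, at least 10 counts in every library, an adjusted p of 0.01, a replicate block, and each library left out.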

Additional observations from a re-analysis of the deposited data

How the results depend on the processing

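*grwd1* kept its direction and its call under every alternative, at -1.97 to -1.92 with a library left out and at -1.55 when scaled to the other large subunit genes. The rise of *rpl3* was not called with the replicate block (0.19) or at an adjusted p of 0.01 (0.19), and was 0.12 to 0.25 with a library left out. Its distance from the median of the other large subunit genes was 0.58 to 0.59 with a library left out, and its log2 share ratio was 0.54 to 0.55, or 0.56 with both subunits as denominator. The numbers of genes higher and lower were 1839 and 1524, 1107 higher with DESeq2, 1193 and 938 at an adjusted p of 0.01, 1000 lower with library totals, and 8124 and 133 when scaled to the other large subunit genes. With a library left out, 1266 to 1375 were higher and 935 to 1327 lower, the fewest lower without wt replicate 1 (935) and wt replicate 2 (1003).

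Scaled to the other large subunit genes, where the median of all genes was 0.40, 2 of these were lower, and values changed sign for *rpl19* (0.24), *rpl11* (0.15), *aamp* (0.052), *bccip* (0.093), *tsr2* (0.15), *heatr3* (0.26), *nap1l1* (0.26), *ltv1* (0.33), *mettl18* (0.25) and *pdcd2l* (0.39), since that scaling lifts all genes. With library totals, *ltv1* (0.0083) and *pdcd2l* (0.063) did so. With a library left out, genes not called ran over 0: *pdcd2l* from -0.11 to 0.092, *pdcd2* from -0.29 to 0.93, *ltv1* from -0.17 to 0.022, *mettl18* from -0.39 to 0.076 and *pum3* from -0.053 to 0.070. Where 1 library of a group was left, it was assumed to vary like the others.

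The replicate numbers are not stated to mark shared pools. Deviations from the group means in wt replicate 1 and crispant replicate 1 had a correlation of -0.0067 over genes. With 2 libraries per group, the deviations of replicate 2 mirror these and add nothing. The replicate block gave 1809 genes higher and 1451 lower. Apart from *rpl3*, it changed no call among the members and the large subunit count. Counting error is wider for *grwd1*, at 102 to 439 counts per library, than for *rpl3*, at 65276 to 86174.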
